A study of Mus musculus with 7 samples.

Results

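Cycling *Aire*-expressing thymic epithelial cells (TECs) were taken from 7 single-cell RNA libraries as the cells with no UMI of *Ptprc*, which encodes the leukocyte protein CD45, a *Ccl21a* value of at most 4, at least 1 UMI of *Aire*, and UMIs of at least 3 of 8 cell-cycle genes. A UMI, or unique molecular identifier, marks 1 counted RNA molecule, and the *Ccl21a* value is the natural log of 1 plus the UMIs per 10000 UMIs of a cell. The 8 genes were *Top2a* (DNA topoisomerase II), *Cdk1* and *Ccna2* (a mitotic kinase and its cyclin A), *Birc5* (survivin), *Ube2c* (a ubiquitin-conjugating enzyme of the anaphase-promoting complex), *Cenpf* (a kinetochore protein), *Nusap1* (a spindle protein) and *Mki67* (the proliferation antigen Ki-67). The rule found 519 of 8453 cells, or 6.14%. They were 6.31% of the 8220 cells without *Ptprc*, and 17.0% of the 3061 cells among these that held *Aire*.

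Medullary TECs (mTECs) show developing T cells a sample of proteins that are otherwise made in peripheral tissues, and the nuclear protein AIRE is needed for the expression of many of them. These antigens are presented with costimulatory molecules on MHC class II, and T cells that bind them strongly are deleted or become regulatory cells. *Aire*-expressing mTECs are short-lived and are replaced throughout life, and signals through the receptor RANK and NF-κB drive their differentiation.

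The study sorted EpCAM-positive, CD45-negative cells from thymi of C57BL/6 mice and made each library from 3 pooled thymi, so animals within a library cannot be told apart. The trace library came from 6-week-old Aire-CreERT2 Rosa26-CAG-stopflox-zsGreen mice given 2 mg of tamoxifen on alternate days over 10 days. There, a tamoxifen-dependent Cre made under control of *Aire* switches on the fluorescent protein ZsGreen, and descendants of a labelled cell keep the label. Wild-type mice received 3 doses of 100 µg of an isotype control antibody or of an antibody that blocks RANK ligand (anti-RANKL) within 1 week. The control libraries were made at week 2 (age 4 weeks) and week 10 (age 12 weeks), and the anti-RANKL libraries at weeks 2, 4, 6 and 10 (ages 4, 6, 8 and 12 weeks). Each anti-RANKL time has 1 library, so single times could not be tested, and the treatments were not tested against each other.

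Depth differed between libraries. The trace library held 15549812 UMIs in 1387 cells (median 9213 per cell), the week 2 control 22197691 in 1163 cells (median 16809) and the week 10 control 13304728 in 1271 cells (median 8333). The anti-RANKL libraries of weeks 2, 4, 6 and 10 had medians of 11145.5, 4779, 4299.5 and 7332 UMIs per cell, with 15089673, 7563528, 3857876 and 11443865 UMIs in all. The trace library stood apart by its Y-linked RNA: it held 421 UMIs of *Ddx3y*, 619 of *Eif2s3y*, 151 of *Uty* and 80 of *Kdm5d*. Apart from 4 *Kdm5d* UMIs in the week 2 control, the other 6 libraries held none, although the mice are described as female unless stated otherwise. Gene counts are therefore given with and without the trace library. No pair of libraries shared more than 7 cell barcodes, and 7 members had a barcode that also occurred in another library.

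The members were spread unevenly over the libraries. The trace library held 52, and the controls of weeks 2 and 10 held 159 and 162. Of the anti-RANKL libraries, week 2 held 7, week 4 held 1, week 6 held 16 and week 10 held 122. Values for weeks 2 and 4 thus rest on very few cells, and tests across genes used only libraries with at least 10 cells in each class.

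Of the cells that lacked *Ptprc*, 14.1% (12.1 to 16.3) were members in the control library from week 2 and 13.0% (11.2 to 15.0) in that from week 10; the controls averaged 13.5% ± 0.772 (SD, n = 2). The brackets are exact 95% binomial intervals and cover counting error only. The share was 0.591% (0.238 to 1.21) at week 2 after anti-RANKL and 0.0689% (0.00174 to 0.383) at week 4. It was 2.23% (1.28 to 3.59) at week 6 and 10.4% (8.72 to 12.3) at week 10. The first 3 anti-RANKL intervals lay below those of both controls, whereas the week 10 interval overlapped both, and the trace library, at 3.95% (2.96 to 5.14), lay between.

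Counted only among *Aire*-positive cells without *Ptprc*, the share was 20.2% ± 0.721 (SD, n = 2) in the controls and 18.1% in the trace library. After anti-RANKL it was 3.45%, 1.61%, 6.64% and 18% at weeks 2, 4, 6 and 10. At full depth the share was thus lower at weeks 2 to 6 among the recovered *Aire*-positive cells too, and the trace library was close to the controls. With cells thinned to 2000 UMIs the controls of weeks 2 and 10 stood at 4.06% (2.43 to 6.35) and 5.57% (3.81 to 7.81). Weeks 2 and 6 after anti-RANKL stood at 1.22% (0.0309 to 6.61) and 3.76% (1.23 to 8.56), and week 4 at 0 of 32 cells (up to 10.9%). These intervals all overlap, so a lower share on this denominator was not shown at equal depth.

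Detection of 3 genes depends on depth, so shares were also taken after each cell was thinned at random to 2000 UMIs, with 116 cells of the week 4 and 61 of the week 6 anti-RANKL library left out as shallower. Members called at 2000 UMIs were 1.56% (0.927 to 2.45) and 2.45% (1.67 to 3.46) of the controls of weeks 2 and 10. They were 0.659% (0.302 to 1.25) of the trace library. After anti-RANKL they were 0.0825% (0.00209 to 0.459) at week 2, 0 of 1348 cells at week 4, with an upper limit of 0.273%, 0.752% (0.245 to 1.75) at week 6 and 2.52% (1.71 to 3.58) at week 10. Weeks 2 and 4 stayed below both controls at equal depth, whereas the week 6 interval overlapped those of both controls.

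**Figure D1:**
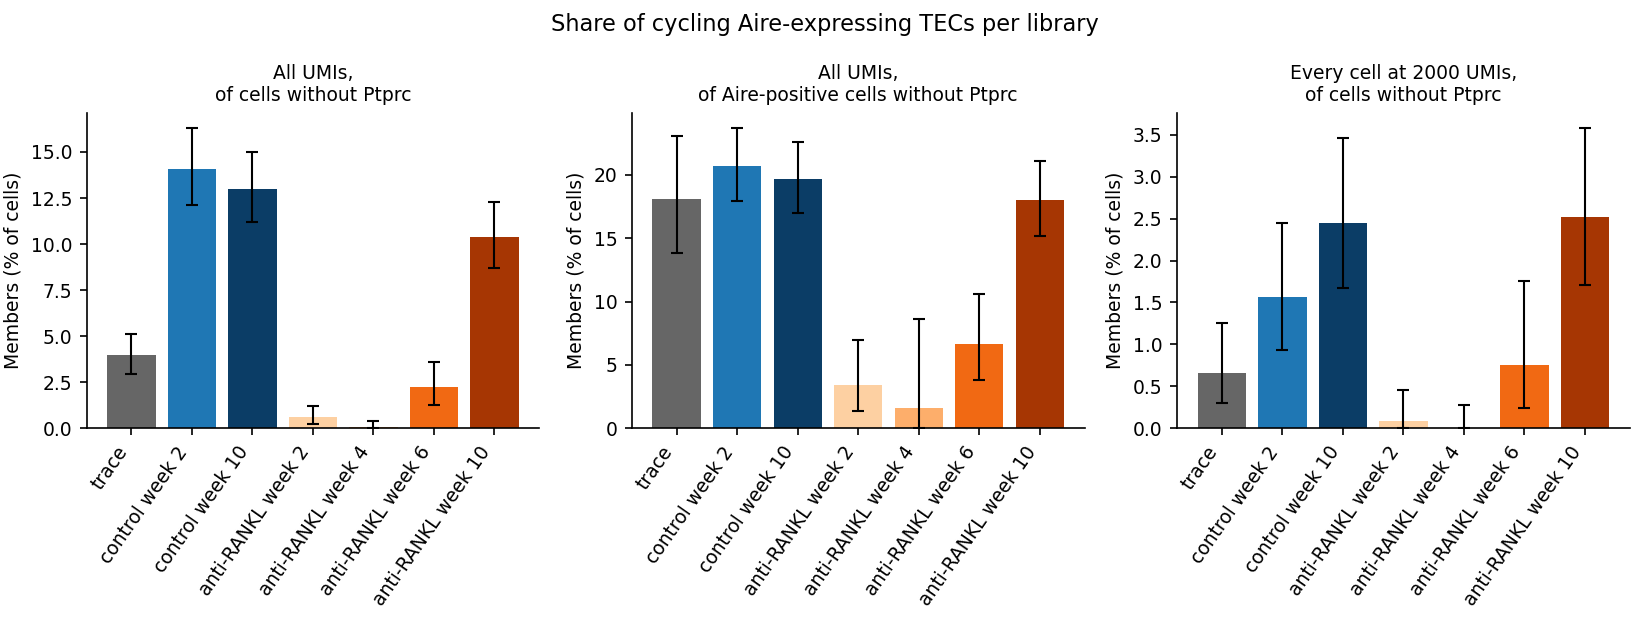
Percent of cells that are cycling *Aire*-expressing TECs in the 7 libraries, among cells without *Ptprc* (left), among *Aire*-positive cells without *Ptprc* (middle), and among cells without *Ptprc* thinned to 2000 UMIs (right). Whiskers are exact 95% binomial intervals; on the left the controls stand at 14.1% and 13.0% and the week 4 anti-RANKL library at 0.0689%.

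Marker levels describe the members and do not test the label, since *Aire* and the cycling genes chose the cells and *Epcam* the sort. All 5 mTEC markers (*Epcam*, *Aire*, *Fezf2*, *Cd80* and *H2-Aa*) were detected in members, with a summed level of 6513 UMIs per 1000000 UMIs (CPM), and *H2-Aa*, which encodes an MHC class II chain, was the most abundant at 4566 CPM. *Epcam*, which encodes the epithelial adhesion protein used in the sort, had a UMI in 98.3% of members, and 69.7% at 2000 UMIs. Of the cycling genes of the rule, *Cdk1* was detected in 81.5% of members, *Top2a* in 80.3%, *Birc5* in 78.6%, *Ube2c* in 72.6%, *Ccna2* in 72.3%, *Mki67* in 68.8%, *Cenpf* in 67.2% and *Nusap1* in 66.7%. These 8 genes and *Aire* chose the cells, so their levels are a description. None of the 8 genes was detected in every member.

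Markers of other cells were present at low levels in most libraries. All 9 thymocyte markers were detected, summing to 49.8 CPM with *Thy1* the most abundant at 29.6 CPM, against 1095 CPM in the cells with *Ptprc*. At least 1 thymocyte UMI occurred in 47.0% of members, and in 6.94% at 2000 UMIs. By library the sum was 28.8 CPM (trace), 47.4 and 54.8 CPM (controls of weeks 2 and 10), and 12.3, 0, 189 and 51.9 CPM (anti-RANKL weeks 2, 4, 6 and 10). The 16 members of week 6 thus stood above the rest. Markers of cortical TECs (5 of 5 detected) summed to 237 CPM, led by *Ctsl* at 177 CPM, with 379 CPM (trace), 217 and 165 CPM (controls) and 1676, 484, 483 and 127 CPM (anti-RANKL), highest in the 7 members of week 2. Tuft cell markers (5 of 5) summed to 29.2 CPM, led by *Dclk1*, and B cell markers (4 of 4) to 13.5 CPM, led by *Cd79b*. Stromal and endothelial markers (5 of 5) summed to 13.6 CPM, led by *Pecam1*, and globin genes (4 of 4) to 59.1 CPM, led by *Hba-a2*. The 6 myeloid markers summed to 268 CPM, of which *Lyz2*, a lysozyme gene, made 250 CPM.

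Members differed widely in how many of the 8 genes they showed. All 8 were detected in 156 members, 7 in 94, 6 in 56, 5 in 57, 4 in 57 and exactly 3 in 99. Median depth was 21227 UMIs in cells with 3 genes, 14866, 16544, 18806 and 20568 in those with 4 to 7, and 31103.5 in those with all 8. The remaining genes of a published G2/M list, which the rule did not use, had a median of 69.0 UMIs per 10000 in cells with all 8 genes, 58.6 with 7, 54.4 with 6, 41.3 with 5, 33.2 with 4 and 13.6 (quartiles 10.1 and 24.8) with 3. *Aire*-positive cells just outside the rule had medians of 11.9 with 2 genes (227 cells), 10.0 with 1 (648 cells) and 9.16 with none (1283 cells). The largest step therefore fell between 3 and 4 genes, and the 99 cells at the limit lay nearer to the cells outside the rule than to the other members.

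The genes of a published S-phase list were also higher from 4 genes on, with their largest step between 4 and 5. Their median was 3.59 UMIs per 10000 in *Aire*-positive cells with none of the 8 genes, 4.73 in those with 3, 10.3 with 4, and 17.9, 18.3 and 18 with 5, 6 and 7. It was 14.1 with all 8. The S list thus stood highest in members with 5 to 7 genes, and the G2/M list in those with 8. S-list UMIs exceeded G2/M-list UMIs in 94 of 519 members (18.1%): in 26.9% of the trace library, 17.6% and 18.5% of the controls of weeks 2 and 10, and 18.8% and 13.9% of the anti-RANKL libraries of weeks 6 and 10.

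**Figure D2:**
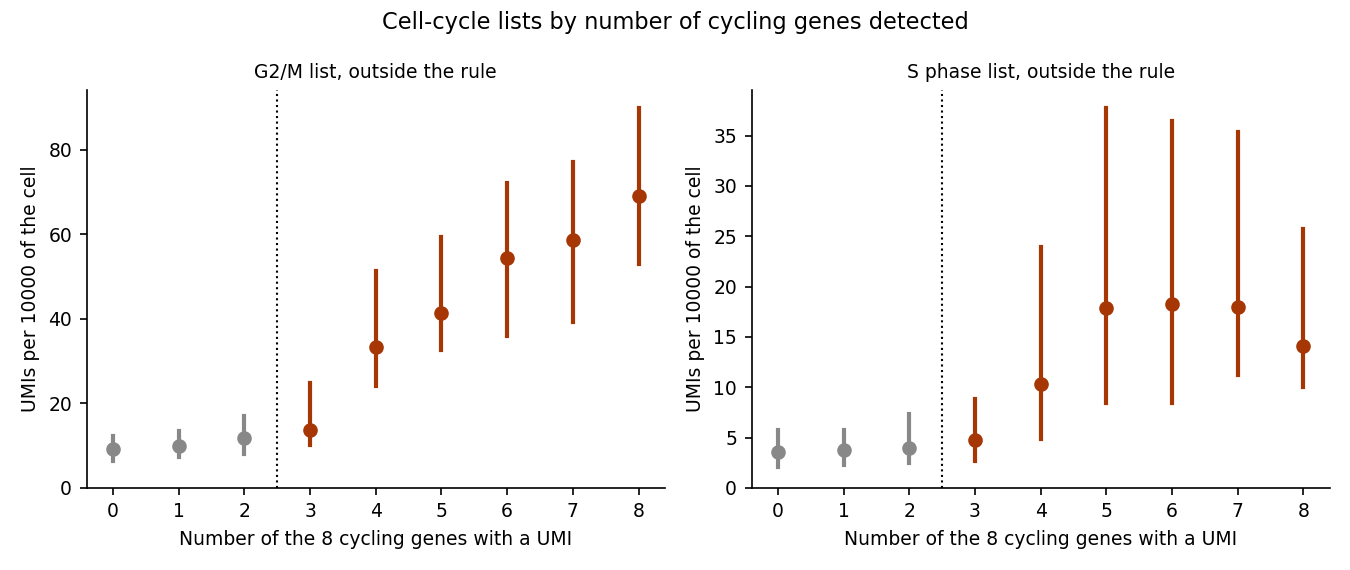
UMIs per 10000 UMIs of a cell from the S-phase list and from the G2/M list without the 8 genes of the rule, against the number of the 8 genes with a UMI, in *Aire*-positive cells without *Ptprc* and with *Ccl21a* of at most 4. Points are medians over cells and bars run from the lower to the upper quartile; the dotted line marks the limit of the rule, and the G2/M median goes from 13.6 at 3 genes to 69.0 at 8.

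At the other limits of the rule, cells on both sides held at least 3 of the 8 genes, so their G2/M values are a description. The 44 members with a single *Aire* UMI had a G2/M-list median of 50.6 per 10000, and the 43 cells that met the rule except for lacking *Aire* had 48.7. The 18 members with a *Ccl21a* value from 3 to 4 had 31.9, and the 16 *Aire*-positive cells from 4 to 5 had 41.2. The 9 cells that met the rule except for holding *Ptprc* had 64.1.

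The 859 cells with an *Aire* value above 1.5 and none of the 8 genes served as non-cycling *Aire*-high cells (50 in the trace library, 144 and 282 in the controls of weeks 2 and 10, and 39, 18, 74 and 252 after anti-RANKL). Of these, 16 held *Ptprc* and 29 had a *Ccl21a* value above 4, since the comparison sets neither limit. In the 5 libraries with at least 10 cells of both classes, members were the deeper cells. Median UMIs of members and non-cycling cells were 23717 and 12015 (trace), 31048 and 17658 (control, week 2), and 16378 and 8252 (control, week 10). They were 13083 and 6407.5 at week 6 and 19257 and 7569.5 at week 10 after anti-RANKL. The mean ratio was 2.04 (log2 1.03 ± 0.194, SD, n = 5; exact two-sided sign-flip permutation p = 0.0625, the smallest that 5 libraries allow, so this design cannot reach 0.05). Requiring 3 detected genes also favours deeper cells, and its part in this ratio was not tested.

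At 2000 UMIs, and without the genes of the rule and of the S and G2/M lists, the number of genes detected per cell was close in both classes. Members and non-cycling cells averaged 962 and 970 genes (trace), 965 and 960 (control, week 2), 980 and 934 (control, week 10), 939 and 960 (anti-RANKL, week 6) and 964 and 926 (anti-RANKL, week 10). At week 6, 5 shallower non-cycling cells were left out. The difference was 11.9 ± 28.7 genes (SD, n = 5; higher in 3 of 5 libraries; exact two-sided sign-flip permutation p = 0.438).

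Across genes, the question was what distinguishes these cells from *Aire*-high cells outside the cycle. UMIs were summed per class and library, turned into CPM, and tested as log2(CPM + 10) within libraries by limma, so a log2 difference understates the change of weakly expressed genes. Outside the genes of the rule and the S and G2/M lists, 1304 of 5316 tested genes were higher in members (24.5%) and 1145 lower (21.5%), together 46.1%, at an adjusted p under 0.05. Without the trace library the counts were 1160 and 958. The median difference over all tested genes was 0.04 on the log2 scale. With so many genes called, counts within a list are read against these shares.

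The genes named next had the largest differences above the non-cycling cells, and no shared function was tested. Those of the cell cycle can move with the rule, although the S and G2/M lists leave them out. Their differences are thus a description. *2810417H13Rik*, which encodes a PCNA-binding factor of replicating DNA, stood at 375, 332, 471, 445 and 459 CPM in members of the trace library, the controls of weeks 2 and 10, and the anti-RANKL libraries of weeks 6 and 10. In the same libraries, the order used from here on, the non-cycling cells had 4.51, 5.61, 7.83, 4.04 and 5.38 CPM. The classes did not overlap, and the log2 difference was 4.78 ± 0.11 (SE, higher in 5 of 5 libraries). The genes here were picked for large differences in the same direction in every library, which favours such a gap. How many of all tested genes lack overlap is not given, here or for later genes. *Tubb5* (chr17:35833921-35838306), a β-tubulin gene, had 1287, 1180, 1797, 1680 and 1678 CPM in members and 188, 174, 247, 327 and 217 CPM in non-cycling cells, again without overlap (log2 2.69 ± 0.09). *Stmn1* (chr4:134468320-134473843), which encodes the microtubule-destabilising stathmin, averaged 771 against 65.2 CPM (3.42 ± 0.22). Positions here are those of GENCODE vM21 on GRCm38.

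The other genes of this end were *Pbk*, a mitotic kinase (3.16), *H2afx*, a histone variant of DNA repair (3.02), *Mad2l1*, a spindle-checkpoint gene (2.61), *Tuba1b*, an α-tubulin gene (2.58), *Spc25*, a kinetochore gene (2.47), *Lmnb1*, which encodes lamin B1 (2.46), *Smc2*, a condensin subunit (2.35), and *Mcm7*, a subunit of the replicative helicase (2.35, all log2). Each was higher in 5 of 5 libraries. *Hist1h2ap*, a replication-dependent histone gene with near-identical copies, differed by 3.85 ± 0.29 but was uneven: members had 83.9, 125, 180, 1741 and 132 CPM, with week 6 far above the others. Non-cycling cells had 1.5, 1.12, 2.61, 34.4 and 3.59 CPM, and week 6 was again the highest, so the libraries also differed in this histone outside the cycle.

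Genes of the S and G2/M lists move with the rule and carry no test here. All 21 S-phase and 33 of 34 G2/M genes that passed the filter on low values were higher, with *Ckap5*, a microtubule polymerase gene, at 0.20. *Hmgb2*, a G2/M-list gene for a chromatin protein, had a UMI at 2000 UMIs in 84.6% of members and 18.9% of non-cycling cells. The replication clamp gene *Pcna* was detected in 19.1% and 6.32%, and the mitotic cyclin gene *Ccnb1* in 15.6% and 1.29%. At full depth these shares were 98.1% and 57.7%, 66.9% and 29.0%, and 50.5% and 3.96%.

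Chromatin and tubulin genes outside these lists were higher as a group: 32 of 34 rose and *Hmgn3*, a nucleosome-binding gene, fell, with a median of 1.17. Those tied to the cell cycle can move with the rule too. The fall of *Hmgn3* was not called when the trace library, either control or week 10 after anti-RANKL was left out, nor with classes called at 2000 UMIs. Their summed level in members was 29758, 25057, 31375, 27814 and 29768 CPM, against 10417, 10431, 10457, 10642 and 9427 CPM in non-cycling cells. The libraries were close to each other within each class, and the classes lay far apart. *Hmgb1* rose by 2.27, *H2afz*, for the histone variant H2A.Z, by 2.23 and *Hmgn2* by 2.32. *Dnmt3a*, a de novo DNA methyltransferase gene, did not pass the test at −0.01.

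Of the 23 tested cyclins, kinases and inhibitors outside the S and G2/M lists, 10 rose and 4 fell. These genes can also move with the rule, so their differences are a description. *Cdk4*, the kinase that acts with D-type cyclins, had 358, 384, 430, 445 and 450 CPM in members and 76.7, 106, 110, 188 and 97.3 CPM in non-cycling cells, which did not overlap (1.80 ± 0.13). *Cdk2* rose by 1.49, *Trp53* by 0.89, *Ccnd1* by 0.81 and *Myc*, a growth regulator, by 0.39. *Ccnb1* rose by 1.62 ± 0.55 in 4 of 5 libraries, but at week 6 members had 18.9 CPM and non-cycling cells 56.6. Inhibitors of cyclin-dependent kinases went in both directions: *Cdkn1c* (p57) fell by 1.23, *Cdkn1a* (p21) by 1.12 and *Cdkn2b* (p15) by 0.63, whereas *Cdkn2d* (p19) rose by 1.06 and *Cdkn2c* (p18) by 0.70. *Ccng1* fell by 0.34, and without the week 10 control only 6 genes of the list rose.

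Genes of the nucleolus and of protein synthesis were higher throughout. All 22 tested nucleolar and growth genes rose, with a median of 1.06, and all 22 rose in each fit that left out 1 library. *Npm1*, for the nucleolar chaperone nucleophosmin, had 2178, 2072, 1756, 1471 and 1953 CPM in members and 641, 930, 730, 669 and 758 CPM in non-cycling cells (1.33 ± 0.10). *Ran*, the GTPase of nuclear transport, rose by 1.94, *Nop56*, a snoRNP protein gene, by 1.53, *Ncl* (nucleolin) by 1.36 and *Fbl* (fibrillarin) by 1.15. No member library reached down to the non-cycling range of *Npm1*. Of 94 genes whose names begin as those of ribosomal proteins, 77 rose and 1 fell, with a median of 0.34; the gene that fell, *Rps6kc1*, encodes a kinase-like protein and no ribosomal subunit. Ribosomal transcripts made up 252636, 251807, 234934, 278679 and 256484 CPM of member RNA, against 164188, 211809, 203739, 234670 and 205206 CPM.

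Genes of respiration and the proteasome moved less. Of 82 oxidative phosphorylation genes, 23 rose and 9 fell, with a median of 0.12. Leaving out 1 library gave 15 to 32 that rose and 4 to 10 that fell, and means of the deposited values 43 and 1. Of 41 proteasome genes 12 rose, among them the nuclear activator gene *Psme3* (0.70), and 2 fell, with a median of 0.21. The 2 that fell were the immunoproteasome genes *Psmb8* (−1.14 ± 0.12) and *Psmb9* (−0.35 ± 0.11). The count that rose depended on the libraries: it was 23 of 42 without week 6, where 1632 of 5342 tested genes rose, and 4 of 41 without the week 10 control, where 971 of 5317 did. It was 29 of 41 with means of the deposited values, where 2088 of 5316 tested genes rose. With array weights it was 27 of 41, where 1831 of 5316 did. Of the 13 genes of the mitochondrial genome, *mt-Nd1* rose by 0.31 and *mt-Co1* and *mt-Cytb* fell by 0.43 and 0.18. The number of these genes that fell was 5 of 12 without week 6 and 3 without the trace library. It was 1 without either control or week 10 after anti-RANKL. The median mitochondrial share of UMIs was 2.42% in members and 2.79% in non-cycling cells.

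Tissue-restricted antigen genes were lower in members. Of 33 tested, 27 fell, none rose, and the median was −1.92. With means of the deposited natural log values 24 fell, none rose, and the median was −0.14. The filter on mean CPM kept 33 of 68 listed genes and favours those that are high in a class; without it 29 of 68 fell, none rose, and the median was −1.16. Their summed level was 1499, 3374, 1757, 989 and 1949 CPM in members and 14332, 12878, 9629, 4552 and 10148 CPM in non-cycling cells. The highest member library was below the lowest non-cycling one. *S100a8* (chr3:90668978-90670035), which encodes a calcium-binding protein of neutrophils, had 97.9, 458, 203, 33.1 and 288 CPM against 2086, 2580, 1812, 932 and 1719 CPM (−3.37 ± 0.30; limma adjusted p = 8.3e-05; lower in 5 of 5 libraries). *Csn2*, for the milk protein β-casein, had 461, 459, 194, 94.6 and 179 CPM against 1981, 1699, 1123, 631 and 1405 CPM (−2.39 ± 0.14). For both genes every member library lay below every non-cycling library, and how much of the member level is free RNA was not tested. *Calcb*, a calcitonin-related peptide gene and the most abundant of the list in members, had 239, 480, 557, 265 and 281 CPM against 457, 899, 1158, 841 and 1009 CPM (−1.26 ± 0.15).

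Other genes with large differences at this end follow, and no function shared by them was tested. *Camp*, an antimicrobial peptide gene, differed by −3.22, *Fabp6* and *Fabp4*, fatty acid-binding protein genes of ileum and fat, by −3.16 and −3.13, and *Prss29*, a serine protease gene, by −3.13. *Pcp4*, a calmodulin regulator gene, differed by −3.08, *S100a9* by −3.04, *Prg4*, for the joint lubricant lubricin, by −2.99, *Psca*, a prostate stem cell antigen gene, by −2.95, and *Calb2* (calretinin) and *Pomc*, the precursor of corticotropin, by −2.90 each. All were lower in 5 of 5 libraries. *S100a9* was near 0 in both classes at week 6, with 0 and 8.08 CPM. *Pomc* was low in both classes of the trace library, with 5.44 and 10.5 CPM.

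Genes of antigen presentation were present at high levels but lower than in non-cycling cells. Of 19 MHC class II and costimulation genes 16 fell, none rose, and the median was −0.74. With means of the deposited natural log values 13 fell and 1 rose, with a median of −0.19. *H2-Aa* (chr17:34282744-34287823) had 4186, 4920, 4706, 3170 and 3917 CPM in members and 8297, 7885, 8338, 5124 and 7562 CPM in non-cycling cells, without overlap (−0.83 ± 0.07). The invariant chain gene *Cd74* averaged 16860 against 25093 CPM (−0.58 ± 0.05). *H2-Oa*, a subunit of a peptide-loading inhibitor, fell by 1.20 and *H2-Ab1* by 0.85. The costimulatory genes *Cd40* and *Cd80* fell by 0.57 and 0.60, the latter in 4 of 5 libraries. *Ciita*, the class II transactivator gene (−0.06), *Icosl* (−0.07) and *Ifi30* (0.06) did not pass the test.

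Chemokine genes showed large differences. Of 18 tested chemokine and cytokine genes 12 fell and none rose, with a median of −0.92, and 12 fell in every fit without 1 library. With means of the deposited natural log values 11 fell and 1 rose, with a median of −0.1. *Ccl5* (chr11:83525778-83530518), a chemokine gene for T cells, had 42.8, 115, 146, 23.7 and 84.8 CPM in members and 424, 1136, 938, 162 and 1191 CPM in non-cycling cells, which did not overlap (−2.97 ± 0.17). *Ccl25*, a thymocyte attractant, differed by −2.65, *Ccl20* by −2.32, *Ccl17* and *Ccl22*, the ligands of CCR4, by −2.31 and −2.07, *Ccl27a* by −2.27 and *Ccl19*, a ligand of CCR7, by −1.23. *Cxcl10* fell by 0.50 and remained the most abundant of the list in members at 705 CPM.

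Of 20 RANK and NF-κB genes 9 fell and none rose, with a median of −0.28. With means of the deposited natural log values 2 rose and 5 fell, with a median of −0.02. Against non-cycling cells within the limits of the members 1 rose and 8 fell. *Tnfrsf11a*, which encodes RANK itself, had 74.6, 68.3, 91.3, 37.8 and 69.5 CPM in members and 122, 91.3, 105, 66.7 and 109 CPM in non-cycling cells (−0.49 ± 0.10). The adaptor gene *Traf1* fell by 1.74, *Tnfrsf11b*, for the decoy receptor osteoprotegerin, by 0.91, and the inhibitor gene *Nfkbia* by 0.70. *Relb*, an NF-κB subunit of the RANK pathway, stood at 0.04 and did not pass the test. Member levels of *Tnfrsf11a* were lower within each of the 5 libraries, although the ranges overlap across libraries.

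Of 23 tested transcription factor genes of mTECs 1 rose and 5 fell, with a median of −0.18, and the share that fell was close to that of all tested genes. Against non-cycling cells within the limits of the members 2 rose and 9 fell. *Fezf2*, a factor for tissue-restricted antigens outside the AIRE program, had 462, 594, 758, 364 and 592 CPM in members and 459, 612, 841, 647 and 791 CPM in non-cycling cells and did not pass the test (−0.28 ± 0.12). *Spib*, at 0.23 ± 0.10, did not pass it either. *Nupr1*, a stress-response gene, fell by 2.28, *Irf7* by 0.94, *Id3* by 0.88, *Irf8* by 0.59 and *Foxn1*, the master factor of TECs, by 0.44. *Aire* itself, part of the rule, averaged 505 CPM in members and 938 CPM in non-cycling cells, which had been chosen by a higher *Aire* limit.

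Of 18 tested DNA repair genes and genes for proteins that bind AIRE, 6 rose and 4 fell, with a median of 0.03. The share that fell was close to that of all tested genes. The importin genes *Kpna2* and *Kpnb1* rose by 2.08 and 1.30, *Dnajc9*, a histone chaperone gene, by 1.22, *Parp1*, a DNA-damage sensor, by 0.82, *Rad21*, a cohesin subunit, by 0.80 and *Top1* by 0.39. *Sirt1*, a deacetylase gene, had 27.2, 55.9, 59.7, 52.0 and 62.7 CPM in members and 158, 140, 187, 97.0 and 252 CPM in non-cycling cells, without overlap (−1.50 ± 0.19). *Chd6*, *Ddx17* and *Crebbp* fell by 0.47, 0.46 and 0.39. Without week 10 after anti-RANKL only 1 gene of the list fell, and without the week 10 control 2.

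Of 9 tested keratins 5 were lower in members, and the basal gene *Krt5* was higher in some comparisons. With means of the deposited values 4 keratins rose and 4 fell. *Krt5* had 573, 179, 192, 355 and 167 CPM against 146, 45.3, 68.6, 424 and 61.0 CPM, so it was higher in 4 of 5 libraries and lower at week 6 (1.22 ± 0.28). Against non-cycling cells within the limits of the members it differed by 0.49, and no keratin was called higher with classes called at 2000 UMIs. *Krt79*, *Krt19*, *Krt20*, *Krt18* and *Krt8* fell by 1.44, 1.17, 1.13, 0.92 and 0.35, whereas *Krt14* (0.35), *Krt7* (0.33) and *Krt17* (0.25) did not pass the test. Of 8 tested genes of cornified and post-*Aire* cells 5 fell, among them *Dmkn* (−1.63), *Krtdap* (−1.49) and *Sprr1a* (−1.46), with a median of −1.1. The desmosomal gene *Dsg1a* rose by 0.45. Without the filter on mean CPM 7 of 25 fell and none rose, with a median of −0.51. The number that fell was 2 without the trace library or the week 2 control and 3 without the week 10 control. No gene of this list rose without either control or week 10 after anti-RANKL. Of 7 progenitor markers, *Cd44*, an adhesion receptor gene, rose by 0.43, the tight-junction genes *Cldn4* and *Cldn7* fell by 1.23 and 1.12, and *Cd24a* fell by 0.46. None of the 7 rose without either control or week 10 after anti-RANKL, and 3 rose without week 6. Against non-cycling cells within the limits of the members, *Cd44* stood at −0.15.

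Genes of the *Ccl21a*-high side were lower as well: 8 of 16 fell, led by *Sparc*, a matrix protein gene (−1.36), and *Ly6a*, for Sca-1 (−1.23). The 2 that rose were *Itgb4* (0.48) and *Cd9* (0.34). At most 1 gene of this list rose when 1 library was left out, and none without week 10 after anti-RANKL. Against non-cycling cells within the limits of the members 1 rose and 12 fell. Interferon genes were mixed, with 3 of 12 higher and 4 lower, and the share that was higher was close to that of all tested genes. *Ifit1* and *Isg15*, antiviral effector genes, fell by 2.47 and 1.22, while *Gbp3*, a guanylate-binding protein gene, rose by 0.90 and *Ifitm3* by 0.31. *Ifitm3* changed sign in another comparison, at −0.11 against non-cycling cells within the limits of the members. In each fit without 1 library at most 2 interferon genes rose. Of 19 immediate early and heat shock genes 5 rose, *Hsp90aa1* (1.15), *Fos* (0.58), *Jun* (0.49), *Egr1* (0.45) and *Hspa8* (0.38), and 2 fell, the small heat shock gene *Hspb1* (−1.25) and *Hspa5* (−0.42). The share of this list that rose was close to that of all tested genes. Without week 6 the counts were 4 and 4. Against non-cycling cells within the limits of the members they were 3 and 3, with a median of −0.14.

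Myeloid, B cell, stromal and globin markers were lower in members than in non-cycling cells in each of the 5 libraries, and other markers were mixed. The 6 myeloid markers summed to 87.1, 298, 323, 109 and 271 CPM in members and 866, 783, 794, 350 and 1080 CPM in non-cycling cells, with *Lyz2* the most abundant in both. *Lyz2* differed by −1.79 and *Fcer1g*, an Fc receptor gene, by −2.18, and the C1q gene *C1qb* by −1.63. The 9 thymocyte markers summed to 28.8, 47.4, 54.8, 189 and 51.9 CPM in members and 52.6, 112, 145, 68.7 and 111 CPM in non-cycling cells, higher in members only at week 6. Globin genes summed to 0, 126, 17.7, 4.73 and 10.0 CPM in members and 393, 256, 54.0, 36.4 and 264 CPM in non-cycling cells. Cortical TEC markers summed to 379, 217, 165, 483 and 127 CPM in members and 386, 182, 198, 992 and 226 CPM in non-cycling cells, higher in members in the week 2 control. Tuft cell markers summed to 28.0, 18.4, 23.2, 47.3 and 56.7 CPM against 25.6, 35.9, 36.1, 36.4 and 56.1 CPM, higher in members in 3 of 5 libraries. Of the cortical list *Tbata* fell by 1.94, while *Prss16*, a protease of cortical TECs, stood at −0.02. The part of these markers in the list results was not tested beyond a fit without cells holding thymocyte UMIs, which called 1403 genes higher and 1250 lower in 4 libraries.

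**Figure D3:**
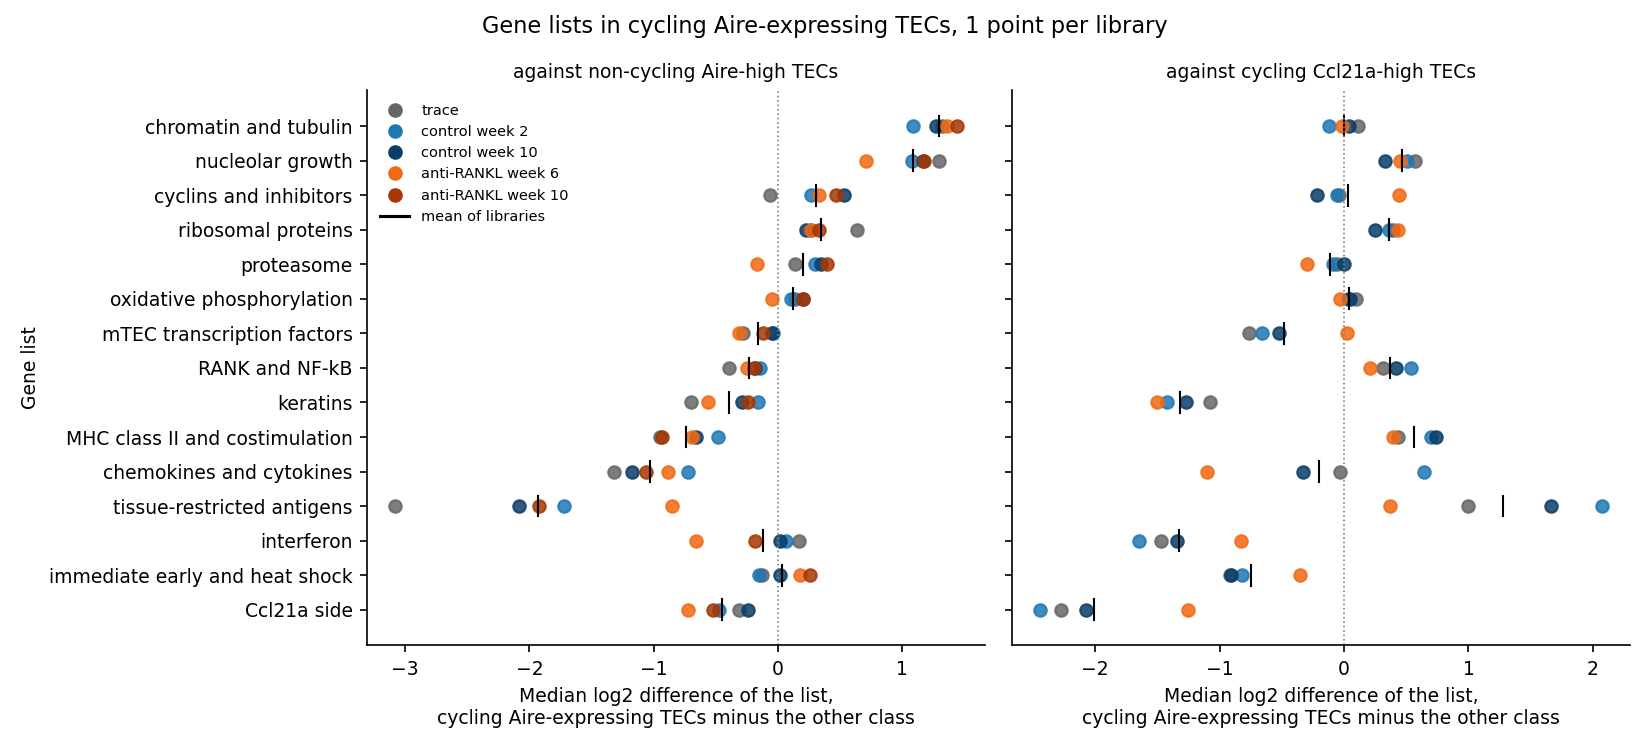
Median log2 difference of each gene list between cycling *Aire*-expressing TECs and non-cycling *Aire*-high cells (left) and cycling *Ccl21a*-high cells (right), 1 point per library and a black line at their mean. The fit across libraries put the tissue-restricted list at −1.92 on the left and 1.65 on the right. These medians were −1.16 and 0.36 without the filter on mean CPM, and −0.14 and 0.09 with means of the deposited values.

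Depth and the limits of the comparison cells bear on these differences directly. When both classes were called on cells thinned to 2000 UMIs, 3 libraries had enough cells, and 1062 genes were higher and 856 lower; 1605 genes were called in both fits, 1604 of them in the same direction. There, 33 of 37 tissue-restricted genes fell (median −2.13), 13 of 18 MHC class II genes fell (−0.71), 21 of 22 nucleolar genes rose (0.85) and 31 of 33 chromatin genes rose (1.27). Only 5 of 20 RANK and NF-κB genes fell there. Against the 1283 non-cycling cells within the *Aire*, *Ccl21a* and *Ptprc* limits of the members, 1328 genes were higher and 1315 lower, 32 of 35 tissue-restricted genes fell (−2.02) and 22 of 22 nucleolar genes rose (1.11).

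The same lists were followed over *Aire*-positive cells grouped by how many of the 8 genes they showed, as a description over the same 5 libraries. Tissue-restricted genes summed to a median over libraries of 9749 CPM (4030 to 15328) with none and 8132 CPM (4306 to 11883) with 1 or 2. They summed to 3045 CPM (1023 to 7180) with 3 or 4 and 1404 CPM (933 to 1793) with 5 to 8. MHC class II and costimulation genes went from 48500 and 47031 CPM to 37024 (27079 to 46704) and 29977 CPM (23746 to 33459). Nucleolar genes went from 4960 and 6220 CPM to 9614 and 12234 CPM. The ranges of the tissue-restricted and MHC class II lists with 3 or 4 genes overlapped those with fewer, and only the cells with 5 to 8 lay apart from both groups outside the rule.

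Cycling *Ccl21a*-high TECs gave a comparison in which both classes were chosen by the 8 cell-cycle genes. CCL21 attracts positively selected thymocytes to the medulla, and mTECs that make much of it mostly lack *Aire*. These 111 cells had no *Ptprc*, a *Ccl21a* value above 4 and at least 3 of the 8 genes; 27 of them held an *Aire* UMI. The libraries held 36 (trace), 12 and 21 (controls of weeks 2 and 10), and 12, 15, 10 and 5 (anti-RANKL weeks 2, 4, 6 and 10) of them. At weeks 2 and 4 after anti-RANKL they thus outnumbered the 7 and 1 members, whereas in both controls and at week 10 members outnumbered them.

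In the 4 libraries with enough cells (trace, controls of weeks 2 and 10, anti-RANKL week 6, the order for this comparison), 507 of 5367 tested genes were higher in members (9.45%) and 571 lower (10.6%), together 20.1%, outside the rule and the *Ccl21* copies. The counts were 324 and 377 without the trace library, 281 and 368 without the first control, 316 and 389 without the second, and 664 and 728 without anti-RANKL week 6. Both classes were chosen by the same 8 genes, so lists of cycle genes are given as a description: 1 of 32 S-phase genes was lower (*Gins2*, a helicase subunit gene, −0.74), and 5 of 48 G2/M genes were lower, among them *Cdc20*, an activator of the anaphase-promoting complex (−1.04). Of 34 chromatin and tubulin genes 3 rose and 3 fell, with a median of 0.02. The G2/M list stood lower in members of the week 2 control, at 6141 against 9976 CPM, and none of its genes was called without that library.

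The genes furthest above the *Ccl21a*-high cells were of varied function and included genes of blood cells. *Rac2* (chr15:78559167-78572783), a GTPase gene of blood cells, had 110, 177, 176 and 151 CPM in members and 16.5, 13.9, 11.9 and 0 CPM in cycling *Ccl21a*-high cells (3.06 ± 0.28; limma adjusted p = 0.00012; higher in 4 of 4 libraries). *Utf1*, a chromatin-associated factor gene of embryonic stem cells, had 418, 550, 562 and 464 CPM against 37.6, 41.8, 116 and 37.2 CPM (3.03 ± 0.21). *Cdx1*, an intestinal homeobox gene, had 276, 485, 553 and 289 CPM against 30.0, 45.3, 77.2 and 37.2 CPM (2.84 ± 0.15). None of the 3 genes overlapped between the classes. They were picked for large differences in the same direction in every library, which favours such a gap. *Cadps*, a secretion gene, differed by 2.92, *Tbc1d4*, a Rab regulator gene, by 2.80, *Hdc*, for histidine decarboxylase, by 2.66, *Cd52*, a lymphocyte antigen gene, by 2.61, and *Hal*, for histidine ammonia-lyase, by 2.54. The 14-gene myeloid list summed to 343, 627, 648 and 431 CPM in members and 90.1, 69.7, 131 and 99.3 CPM in *Ccl21a*-high cells, and the 23-gene thymocyte list to 124, 176, 175 and 393 CPM and 48.1, 48.8, 50.5 and 74.5 CPM. Both lists were higher in members of all 4 libraries. Their part was not tested beyond a fit without cells holding thymocyte UMIs, which called 583 genes higher and 644 lower in 3 libraries.

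Tissue-restricted antigen genes, lower than in non-cycling *Aire*-high cells, were mostly higher here among those that passed the filter. Of 15 tested 9 rose and 2 fell (*Apoc1* and *Crp*, liver protein genes), with a median of 1.65. The filter kept these 15 of 68 listed genes and favours those that are high in a class. Without the filter on mean CPM 6 of 66 rose and 1 fell, with a median of 0.36, and with means of the deposited values the median was 0.09, so the size of this difference depends on the genes and scale used. The list summed to 1499, 3374, 1757 and 989 CPM in members and 442, 620, 481 and 633 CPM in the *Ccl21a*-high cells. *Calcb* had 239, 480, 557 and 265 CPM against 18, 94.1, 172 and 24.8 CPM (2.50 ± 0.24), and *Csn2* rose by 2.73. Members were above the other class in every library, by least at week 6, and without the week 2 control 5 of 12 tested genes rose.

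*Fezf2* had 462, 594, 758 and 364 CPM in members and 207, 341, 217 and 136 CPM in *Ccl21a*-high cells (1.25 ± 0.16), with every member library above every other. *Spib* and *Irf8* rose by 0.69 and 0.55. *Id1*, *Irf7*, *Id3*, *Hes1* and *Id2* differed by −2.93, −2.72, −2.21, −2.14 and −1.76, and *Trp63*, a basal epithelial factor, by −1.35.

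Of 18 MHC class II and costimulation genes 11 rose and 2 fell, with a median of 0.57. *Cd80* had 28.8, 39.1, 39.2 and 61.5 CPM in members and 6.01, 6.97, 5.94 and 0 CPM in *Ccl21a*-high cells (1.82 ± 0.32), and *Cd40* and *Icosl*, 2 further costimulatory genes, rose by 1.61 and 1.56. The class II genes themselves were nearer: *Cd74* rose by 0.31 and *H2-Aa* by 0.24, and *H2-Ab1* fell by 0.28. *Cd274*, for the inhibitory ligand PD-L1, fell by 1.02. Of 18 RANK and NF-κB genes 5 rose, among them *Tnfrsf11b* (1.81) and *Relb* (0.62), and 2 fell; *Tnfrsf11a* did not pass the test at 0.28 ± 0.23.

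Genes of growth were higher here too. Of 22 nucleolar genes 10 rose (median 0.45, smaller than against non-cycling cells), and *Npm1* differed by 0.62 ± 0.10. Of 93 ribosomal protein genes 68 rose (median 0.37), but 44 without the trace library and 46 without the week 2 control. *Ccnd2*, which encodes cyclin D2, had 947, 793, 936 and 729 CPM in members and 554, 331, 460 and 298 CPM in *Ccl21a*-high cells (1.07 ± 0.11), and every member library lay above the other class. *Cdkn2a*, for an inhibitor of CDK4, rose by 1.69, and *Btg2* and *Btg1*, anti-proliferative genes, fell by 1.17 and 0.82.

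Genes of the *Ccl21a*-high side, of interferon and of basal keratins were lower in members. *Ptn*, for the growth factor pleiotrophin, had 4.66, 5.99, 6.59 and 4.73 CPM against 213, 171, 187 and 211 CPM (−3.73 ± 0.20; limma adjusted p = 1.9e-05; lower in 4 of 4 libraries), and 17 of 19 genes of the *Ccl21a* side fell. *Ifitm3*, for an antiviral membrane protein, had 2075, 1428, 1444 and 2413 CPM against 6273, 6007, 7565 and 7495 CPM (−1.92 ± 0.12). *Krt5* had 573, 179, 192 and 355 CPM against 2211, 2150, 1226 and 1551 CPM (−2.54 ± 0.22). The classes lay far apart in all 3. Of 15 interferon genes 10 fell (median −1.73), and 5 of 6 keratins fell, with *Krt8* not passing the test at −0.22. *Apoe*, an apolipoprotein gene, differed by −3.50, *Acta2*, a smooth-muscle actin gene, by −3.33, *Isg15* by −3.18, *Tagln*, an actin-binding gene, by −3.12, *Ccl11*, an eosinophil chemokine gene, by −3.09, *Anxa1* and *Anxa2*, annexin genes, by −2.97 and −2.80, *Col6a2*, a collagen gene, by −2.97, *Rtp4* by −2.93 and *Tgfbi*, a matrix gene, by −2.79. The sum of the 10-gene stroma and endothelium list moved with these genes. It stood at 263, 178, 207 and 279 CPM in members and 1133, 1631, 1048 and 1737 CPM in *Ccl21a*-high cells. The 5 stromal and endothelial markers were lower in members only in the trace library. They had 3.89, 15.5, 19.1 and 0 CPM in members and 27.0, 10.5, 5.94 and 0 CPM in *Ccl21a*-high cells. Without the filter on mean CPM, 1 of 9 genes of the list rose and 2 fell, with a median of 0.02. The part of stromal RNA was not tested.

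Immediate early genes and other lists moved as well. Of 20 immediate early and heat shock genes 10 fell, among them *Hspb1* (−2.42), *Atf3* (−2.04), *Fos* (−1.40) and *Jun* (−1.35), and *Hspa5* and *Hspa8* rose by 0.50 and 0.43. *Ctsl*, a protease gene of cortical TECs, fell by 2.68. Of the 3 tested genes of the cortical TEC list 1 rose and 1 fell, with a median of 0.05. *Il7*, a thymocyte growth factor gene, fell by 1.63 and *Cxcl12* by 1.86, whereas *Tnfsf9*, for the ligand of 4-1BB, rose by 1.96. The tight-junction genes *Cldn7*, *Cldn4* and *Cldn3* rose by 1.84, 1.68 and 1.20, and *Epcam*, *Cd44* and *Cd24a* fell by 0.75, 0.78 and 1.46. The myeloid gene *Lyz2* rose by 2.60 and the lymphocyte gene *Coro1a* by 1.33. Over all libraries the 9 thymocyte markers summed to 49.8 CPM in members and 16.0 CPM in *Ccl21a*-high cells.

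Within members, libraries of the 2 treatments were set side by side as single values, without a test. Chromatin and tubulin genes summed to 25057 and 31375 CPM in the controls and 29454, 25174, 27814 and 29768 CPM at weeks 2, 4, 6 and 10 after anti-RANKL, which overlap. Nucleolar genes summed to 12187 and 11217 CPM in the controls and 10649, 5809, 8994 and 12079 CPM after anti-RANKL, lowest in the single cell of week 4. Tissue-restricted genes summed to 3374 and 1757 CPM in the controls, 1499 CPM in the trace library and 585, 1549, 989 and 1949 CPM after anti-RANKL. *Ccl21a*, bounded by the rule, stood at 278 and 308 CPM in the controls, 944 CPM in the trace library and 1132, 871, 1821 and 240 CPM after anti-RANKL. Members of week 10 after anti-RANKL thus lay near the controls on each measure, and those of weeks 2 to 6, with 24 cells in all, had more *Ccl21a* RNA and fewer tissue-restricted transcripts than both controls. The trace library, without anti-RANKL, did so too. Non-cycling *Aire*-high cells also differed at week 6. Their tissue-restricted genes summed to 4552 CPM there, 12878 and 9629 CPM in the controls and 14332 CPM in the trace library. The genes of the rule, *Ccl21a* among them and not bounded in these cells, summed to 5209, 1404, 1374 and 2827 CPM in the same order. The part of free RNA was not tested.

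ZsGreen RNA was counted in the cells of the trace library, where the part of free RNA in droplets was not bounded, so a UMI alone does not mark a cell as labelled. It was detected in 41 of 52 members (78.8%, 65.3 to 88.9), 44 of 50 non-cycling *Aire*-high cells (88.0%, 75.7 to 95.5) and 18 of 36 cycling *Ccl21a*-high cells (50%, 32.9 to 67.1). Median depths were 23717, 12015 and 14742 UMIs. At 2000 UMIs the shares were 28.8% (17.1 to 43.1), 52.0% (37.4 to 66.3) and 8.33% (1.75 to 22.5), and the level was 281, 561 and 117 CPM. For comparison, 241 of 648 *Ccl21a*-high cells with neither *Aire* nor any of the 8 genes held a ZsGreen UMI (37.2%, 33.5 to 41.0, and 11.9%, 9.49 to 14.6, at 2000 UMIs; median depth 8220.5), and 0 of 4 cells with thymocyte RNA and no *Epcam* did (upper limit 60.2%). In this 1 library the interval of members lay above that of these non-cycling *Ccl21a*-high cells and overlapped those of the non-cycling *Aire*-high and the cycling *Ccl21a*-high cells, at either depth. The differences were not tested, and the comparison classes were chosen after the values were seen.

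Promoters of the late cell-cycle genes were read for 2 motifs, TTTGAA, a form of the cell-cycle homology region, and CCAAT, the site of NF-Y. In the 250 bases before the RefSeq transcription start on GRCm38.p6, TTTGAA occurred on either strand in 20 of 46 G2/M genes (43.5%), 6 of 31 S-phase genes (19.4%), 7 of 29 chromatin and tubulin genes (24.1%), 1 of 14 MHC class II and costimulation genes (7.14%), 14 of 47 tissue-restricted genes (29.8%), 13.0% of the tested genes and 18.3% of all 27025 genes. CCAAT occurred in 35 of 46 G2/M genes (76.1%), 22 of 31 S-phase genes (71.0%), 18 of 29 chromatin and tubulin genes (62.1%), 9 of 14 MHC class II and costimulation genes (64.3%), 5 of 19 nucleolar genes (26.3%), 40.9% of the tested genes and 37.5% of all genes. CCAAT was thus as frequent in the MHC class II list, which was lower in members, as in the chromatin list, which was higher. Of the 8 genes that define cycling members, 7 had a promoter in the table; 4 (*Cdk1*, *Mki67*, *Top2a* and *Ube2c*) held TTTGAA and 5 (these and *Cenpf*) CCAAT. These 2 motifs were kept out of 6 after the counts were seen, and binding was not analysed here. Those of *Cdk1* (chr10:69352913-69353162, minus strand), *Ube2c* (chr2:164769679-164769928, plus strand) and *Top2a* (chr11:99024190-99024439, minus strand) follow, on the gene strand and with the motifs of either strand in capitals.

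Cdk1: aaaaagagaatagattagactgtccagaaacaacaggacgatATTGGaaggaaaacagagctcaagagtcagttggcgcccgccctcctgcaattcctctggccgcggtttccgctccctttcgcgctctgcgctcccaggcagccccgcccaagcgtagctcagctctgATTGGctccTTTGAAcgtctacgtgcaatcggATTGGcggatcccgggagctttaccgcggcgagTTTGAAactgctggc
Ube2c: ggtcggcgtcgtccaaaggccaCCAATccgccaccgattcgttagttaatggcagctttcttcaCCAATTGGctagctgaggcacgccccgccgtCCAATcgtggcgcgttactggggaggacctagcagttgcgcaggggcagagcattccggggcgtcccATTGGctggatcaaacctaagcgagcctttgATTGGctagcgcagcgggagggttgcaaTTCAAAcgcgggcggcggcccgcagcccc
Top2a: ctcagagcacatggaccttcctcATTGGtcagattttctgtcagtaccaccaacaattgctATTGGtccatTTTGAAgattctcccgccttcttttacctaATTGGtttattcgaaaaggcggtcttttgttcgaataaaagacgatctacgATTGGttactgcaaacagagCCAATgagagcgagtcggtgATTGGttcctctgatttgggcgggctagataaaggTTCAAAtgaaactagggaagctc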

How the data were processed

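The deposited values are those of the authors: the natural log of 1 plus the UMIs per 10000 UMIs of a cell, which they computed before deposition. The submitters' processing notes name Cell Ranger 2.2.0 on mm10-1.2.0, with a ZsGreen transcript added for the trace library, and Seurat 2.3.4, with filters on genes per cell and mitochondrial share; the files hold cells of 222 to 7442 genes. They give a smaller scale factor, but the values of each cell sum to 10000 once the log is undone. Whole UMIs were recovered in all 8453 cells, and genes not listed for a library were set to 0. A further 10760 cell columns of the series were not used here. UMIs were summed per class and library and tested in limma 3.58.1 on R 4.3.3 with library as a block and an intensity trend. Benjamini-Hochberg adjustment covered genes with a mean of at least 20 CPM. The p-values thus weigh the class difference within libraries against its spread over the trace, control and anti-RANKL libraries. The remaining steps ran in scanpy 1.11.5, matplotlib 3.10.9, pandas 2.3.3, scipy 1.17.1 and numpy 2.4.6 under Python 3.11.15. Scrublet marked 32 of 8453 cells (0.379%) as doublets, 2 of them members. Named genes are those of the lists, and in each comparison the 12 largest differences each way with an adjusted p under 0.05, at least 50 CPM in a class and the same direction in every library. Other genes were picked after the values were seen, and members and lists were chosen with earlier results of these data known. Alternatives tried were other pseudocounts and filters, means of the deposited values, no library block, array weights, 5 of 8 genes, classes at 2000 UMIs, removal of doublets or of cells with thymocyte UMIs, other limits of the non-cycling cells, and leaving out each library. *Ccl21a*, *Hist1h2ap*, *Tuba1b* and *Hba-a2* have near-identical copies, so their UMIs may belong to other copies. Results on some genes are not reported here.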

Additional observations from a re-analysis of the deposited data

Results flagged for a closer look

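The median log2 difference of the interferon list between members and non-cycling *Aire*-high cells was 0.07 and 0.02 in the controls of weeks 2 and 10, against −0.66 at week 6 and −0.18 at week 10 after anti-RANKL; this difference was not tested.

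The sex-linked list summed to 2808 CPM in the 1 member of week 4 after anti-RANKL, against 683 and 910 CPM in members of the controls; 1 cell carries this value.

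The 9-gene cortical TEC list, not the 5 cortical markers of the report (1676 CPM against 217 and 165 CPM), summed to 3978 CPM in the 7 members of week 2 after anti-RANKL, against 865 and 623 CPM in members of the controls; this was not analysed further.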

How the results depend on the processing

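The share of *Ptprc*-negative cells that were members depended on the number of genes required. With at least 2 genes the controls stood at 19.9% and week 10 after anti-RANKL at 14.6%. With at least 5 they stood at 9.03% and 8.11%, the trace library at 2.88% and week 4 at 0.0%. At 2000 UMIs the controls stood at 2.01%, the trace library at 0.659%, and weeks 2, 4, 6 and 10 after anti-RANKL at 0.0825%, 0.0%, 0.752% and 2.52%.

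Between 1853 and 3259 genes were called against non-cycling cells over all settings. Of the calls 53.2% were higher in members, 75.5% with means of the deposited values and 42.0% without a filter. Against cycling *Ccl21a*-high cells 572 genes were called without a filter and 649 to 1392 when 1 library was left out; classes called at 2000 UMIs gave no fit there.

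*Ccng1* changed sign to 0.02, *Hmgn3* to 0.01 and *Ndufv3* to 0.02 with means of the deposited values. *Ifitm3* changed to −0.25 with classes called at 2000 UMIs and to −0.11 against non-cycling cells within the limits of the members, where *Cd44* was −0.15. The cause was not tested.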
